A study of Mus musculus with 60 samples.

Results

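Gene expression was compared between mouse C3H10T1/2 cells labelled 23-CATA and cells labelled 23-NC on day 4 of adipocyte differentiation. The comparison rests on 6 of the 60 RNA sequencing libraries of the series, 3 in each group, chosen by their titles. C3H10T1/2 is an embryonic mouse mesenchymal line that can form fat, bone, cartilage and muscle cells, used here as preadipocytes. The series concerns TET1 in fat cell formation and also holds wild-type, Tet1-KO and 23-Tet1 cells, sampled at days 0, 2, 4 and 6. The labels give 23-NC and 23-CATA as genotypes and explain neither name, the vector used, nor whether each population is 1 clone. All groups were treated alike. Growth medium with 10% fetal bovine serum was exchanged at day 0, 1 day past confluence, for a mixture that contained 10 µg/ml insulin, 1 µM dexamethasone (a glucocorticoid), 0.5 mM 3-isobutyl-1-methylxanthine (which raises cyclic AMP), 1 µM rosiglitazone (a PPARG agonist) and 1 nM of the thyroid hormone T3. After 48 h the cells were moved to medium with 5 µg/ml insulin and no other inducer, so the day 4 cells had spent 48 h without the mixture. The labels do not say whether the 3 libraries of a group came from separate cultures. The p-values therefore measure only the spread between libraries within a group, pooled over the 12 groups fitted together.

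TET1 is a dioxygenase that oxidises 5-methylcytosine in DNA, most of which sits in CG dinucleotides, and so starts the removal of methylation. In adipogenesis, C/EBP factors and the nuclear receptor PPARG, which binds DNA with its partner RXR, switch on genes for lipid uptake, triglyceride storage and lipolysis, while genes for the extracellular matrix and for progenitor signalling usually decline. Brown and beige fat cells add a dense mitochondrial network, muscle-type respiratory subunits and, as a defining feature, the uncoupling protein UCP1.

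Levels are given as FPKM, fragments per kilobase of transcript scaled to library depth. The smallest steps between FPKM values put the depth of the 6 libraries at about 12400000 to 16100000 fragments, and 14191 to 14461 genes had a value above 0 in each. Log2 levels correlated at 0.991 to 0.996 between replicates of either group and at 0.923 to 0.949 between groups. Differences are given on the log2(FPKM + 1) scale, which understates the change of low genes, and after subtracting the median over the 12231 genes tested, which lay at −0.08 as fitted. A gene was called when limma's adjusted p fell under 0.05, with all 36 libraries of the same table in the fit. A trend with transcript length ran through the comparison. The median difference as fitted was 0.05 in the shortest of 5 equal length bins of genes and −0.29 in the longest, with a correlation of −0.21 across 12102 genes. Replicate 3 of either group stood apart from replicates 1 and 2 in the same way, with a median of −0.13 in 23-NC and −0.16 in 23-CATA for the longest bin. At day 0 the correlation of the difference with length was −0.07. Calls were recomputed with this trend removed, and those values are given for the lists described below whose higher or lower count moved by more than 1.5 times.

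**Figure D1:**
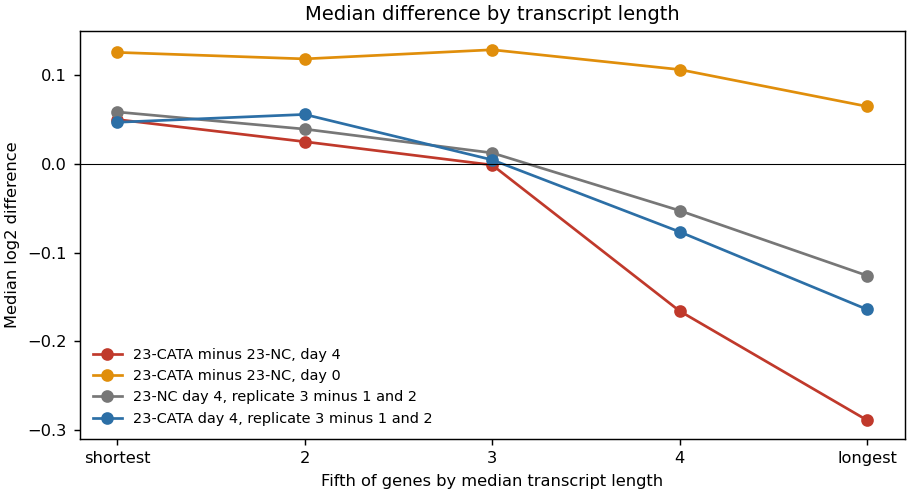
Median log2 difference (y axis, as fitted) in 5 bins of genes by median transcript length (x axis, shortest to longest), for 23-CATA minus 23-NC at day 4 and day 0 and for replicate 3 minus the mean of replicates 1 and 2 within each day 4 group. The day 4 comparison runs from 0.05 in the shortest bin to −0.29 in the longest, and replicate 3 of either group falls with length as well.

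Tet1 itself separated the groups. It stood at 0.03, 0.02 and 0.02 FPKM in the 23-NC libraries and at 9.73, 10.97 and 6.8 FPKM in the 23-CATA libraries, a log2 difference of 3.37 (SE 0.11, adjusted p = 1.11e-20). Every 23-CATA library lay far above every 23-NC library, and the 23-NC values were close to 0. The values alone do not show whether the transcript came from the gene on chromosome 10 (GRCm38, 62804570 to 62887469) or from an introduced copy. The other TET dioxygenases were lower in 23-CATA. Tet2 stood at 5.45, 4.74 and 4.07 FPKM in 23-NC and 3.15, 3.46 and 1.99 in 23-CATA, a log2 difference of −0.50 (SE 0.16, adjusted p = 0.00236). Tet3 gave 11.9, 11.6 and 8.68 FPKM in 23-NC and 6.21, 7.08 and 4.27 in 23-CATA, a difference of −0.70 (SE 0.15, adjusted p = 3.6e-05). For both genes the groups did not overlap, and replicate 3 was the lowest library of its group. Of 18 tested genes of DNA methylation and demethylation, Tet1 was the only one called higher and 10 were called lower, against 28.9% of all genes called higher and 39.9% called lower. With the trend on length removed, 4 were called higher and 8 lower. The falls included Ogt, which encodes the O-GlcNAc transferase that binds TET proteins (−0.96, SE 0.10, adjusted p = 2.41e-10), and the maintenance methyltransferase gene Dnmt1, which was picked after its values were seen (−0.42, SE 0.08, adjusted p = 2.24e-06).

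In all, 8408 of the 12231 genes (68.7%) were called, 3529 higher and 4879 lower in 23-CATA, so that a call alone says little about any gene here. Of the calls, 42.0% were higher as deposited, 52.7% after median-ratio scaling and 51.6% after the trend on length was removed. A call with a fitted log2 difference of at least 1, termed a large call below, was rarer. There were 848 large rises (6.93% of the genes tested) and 733 large falls (5.99%). The groups did not overlap for 66.6% of genes.

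Rbp7 led the 15 largest rises, and Cox7a1, Elovl3, Cidea, Cox8b and Ucp2 were among them. Rbp7, an intracellular retinol-binding protein (GRCm38 chromosome 4, 149449687 to 149466462), stood at 3.11, 3.52 and 5.27 FPKM in the 23-NC libraries and at 381, 348 and 389.7 FPKM in the 23-CATA libraries, a log2 difference of 6.34 (SE 0.27, adjusted p = 2.34e-18). Cox7a1, the heart and muscle form of a cytochrome c oxidase subunit that brown fat also uses, gave 0.93, 0 and 0.76 FPKM in 23-NC and 76.9, 63.98 and 89.01 in 23-CATA (5.76, SE 0.31, adjusted p = 1.14e-15). Elovl3, an elongase of very long fatty acids known from brown fat, gave 0.36, 0.4 and 0.55 FPKM against 57.4, 58.8 and 62.5 (5.48, SE 0.09, adjusted p = 1.26e-28). Each of these genes was low in the 23-NC libraries and clearly expressed in all 3 libraries of 23-CATA. In bulk RNA, fewer cells of a type and less RNA per cell cannot be told apart. Cidea, a lipid droplet protein abundant in brown fat, gave 1.48, 2.09 and 1.41 FPKM against 91.5, 81.1 and 98.1 (5.19, SE 0.10, adjusted p = 3e-26). Cox8b, another muscle-type cytochrome c oxidase subunit, gave 2.87, 3.5 and 5.49 FPKM against 143, 121 and 155 (4.94, SE 0.22, adjusted p = 1.28e-17). Ucp2, a mitochondrial carrier of the uncoupling protein family, gave 0.83, 0.61 and 0.34 FPKM against 43.7, 39.8 and 49.3 (4.92, SE 0.13, adjusted p = 9.61e-23). The groups were again fully apart for all 3 genes. The other genes among the 15 largest rises were Sncg (γ-synuclein, 6.17), Trf (transferrin, the iron carrier, 6.08), Aqp7 (the glycerol channel of fat cells, 5.13), Chchd10 (a protein of mitochondrial cristae, 4.97), Aldh3b2 (an aldehyde dehydrogenase, 4.86), Acaa1b (a peroxisomal thiolase, 4.69), Ndufa4l2 (4.52), Cmbl (a hydrolase, 4.44) and Cpt1b (the muscle form of the carnitine palmitoyltransferase that admits fatty acids to mitochondria, 4.21).

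**Figure D2:**
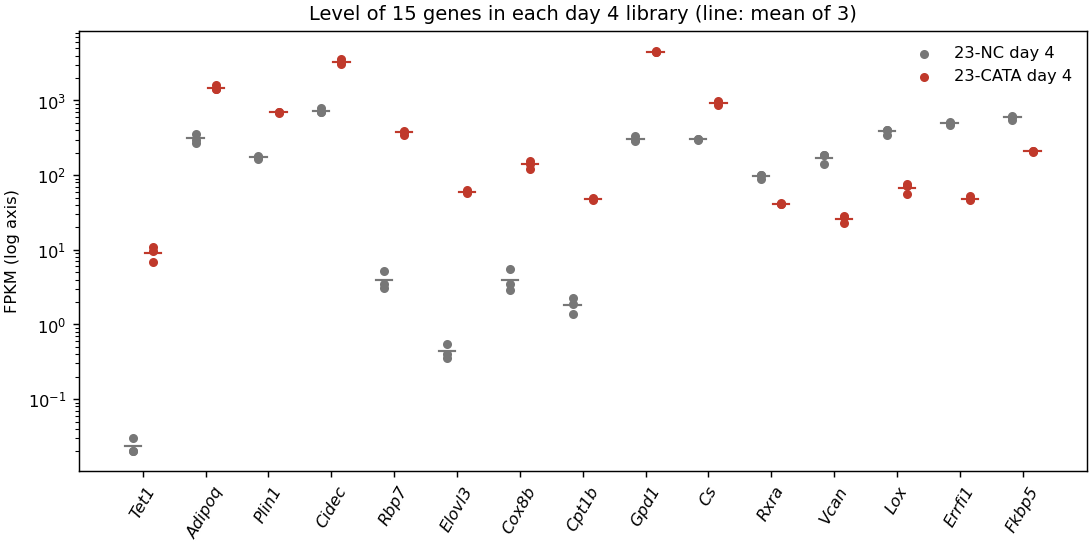
FPKM (y axis, log scale) of 15 genes in each day 4 library, with 3 libraries of 23-NC in grey and 3 of 23-CATA in red; lines are group means. The groups do not overlap for any of the 15 genes, and Tet1, Rbp7, Elovl3, Cox8b and Cpt1b do not exceed 5.49 FPKM in 23-NC.

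The promoters of 4 of these rising genes and of Adipoq, the adiponectin gene described below, are shown because TET1 acts on methylated CG dinucleotides and these genes differ in how many they hold. Each is the 300 bases around the RefSeq start site on GRCm38.p6, written 5′ to 3′ on the gene's strand, with every CG in capitals.
Rbp7: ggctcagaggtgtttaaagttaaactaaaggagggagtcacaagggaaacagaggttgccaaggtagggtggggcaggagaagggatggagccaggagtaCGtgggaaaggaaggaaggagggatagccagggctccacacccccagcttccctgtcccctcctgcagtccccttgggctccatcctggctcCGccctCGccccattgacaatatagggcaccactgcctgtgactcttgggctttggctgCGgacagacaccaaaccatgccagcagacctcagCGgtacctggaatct
Cox7a1: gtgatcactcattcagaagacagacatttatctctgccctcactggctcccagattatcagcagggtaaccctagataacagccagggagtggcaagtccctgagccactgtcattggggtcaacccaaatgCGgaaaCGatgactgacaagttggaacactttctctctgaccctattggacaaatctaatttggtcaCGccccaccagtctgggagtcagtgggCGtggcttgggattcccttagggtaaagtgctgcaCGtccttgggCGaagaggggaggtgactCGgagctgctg
Cox8b: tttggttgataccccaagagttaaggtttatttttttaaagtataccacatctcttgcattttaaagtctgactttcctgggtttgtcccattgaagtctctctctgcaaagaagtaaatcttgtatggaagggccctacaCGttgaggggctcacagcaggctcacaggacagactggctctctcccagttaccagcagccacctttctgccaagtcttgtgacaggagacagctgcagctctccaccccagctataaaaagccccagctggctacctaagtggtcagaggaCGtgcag
Ucp2: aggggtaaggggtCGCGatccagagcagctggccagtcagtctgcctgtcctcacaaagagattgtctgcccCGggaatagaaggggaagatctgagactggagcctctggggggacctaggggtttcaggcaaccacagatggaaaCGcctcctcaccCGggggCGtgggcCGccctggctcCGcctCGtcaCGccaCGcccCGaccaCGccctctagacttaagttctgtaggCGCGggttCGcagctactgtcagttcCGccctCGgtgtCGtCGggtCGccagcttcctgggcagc
Adipoq: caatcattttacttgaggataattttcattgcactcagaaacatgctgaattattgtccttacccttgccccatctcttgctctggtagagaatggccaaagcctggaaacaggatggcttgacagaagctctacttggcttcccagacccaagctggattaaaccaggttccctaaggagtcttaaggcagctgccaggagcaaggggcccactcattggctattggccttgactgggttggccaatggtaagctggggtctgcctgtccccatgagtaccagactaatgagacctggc

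The regions are chr4:149454919-149455218 on the minus strand for Rbp7, chr7:30183921-30184220 on the plus strand for Cox7a1, chr7:140900397-140900696 on the minus strand for Cox8b, chr7:100493108-100493407 on the plus strand for Ucp2 and chr16:23146286-23146585 on the plus strand for Adipoq. The Rbp7 region lies inside the span given above for that gene, away from the 5′ end of the span. Ucp2 holds 21 CG dinucleotides, Cox7a1 holds 7, Rbp7 holds 5, Cox8b holds 2 and Adipoq holds 0. For each of the 27025 genes of the promoter table, the promoter with the most CG dinucleotides was taken. Over these the median was 8, with quartiles of 3 and 22, and 5.40% held 0. The 5 promoters ran from CG-free to close to the upper quartile. The sequence AGGTCA, a nuclear receptor half-site, was in none of the 5 on either strand, against 15.7% of the 27025 promoters taken. Methylation was not measured in these libraries.

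Mitochondrial genes rose together. All 47 tested genes of the citrate cycle and respiratory chain were called higher, 35 of them as large calls, with a median log2 difference of 1.33, against 28.9% of all genes called higher and a median of 0 by construction. Idh3b, a subunit of the citrate cycle's isocitrate dehydrogenase, gave 134, 141 and 148 FPKM in 23-NC and 496, 489 and 575 in 23-CATA (1.96, SE 0.07, adjusted p = 1.41e-19). Cycs, which encodes cytochrome c, gave 152, 160.0 and 218 FPKM against 585, 596 and 540.0 (1.79, SE 0.11, adjusted p = 3.9e-14). Cs, which encodes citrate synthase and was picked after its values were seen, gave 309.6, 299 and 302 FPKM against 975, 966 and 864 (1.70, SE 0.04, adjusted p = 6.64e-23). All 3 libraries of 23-CATA lay above all 3 of 23-NC for each of these genes. Of 27 fatty acid oxidation genes, 26 were called higher and none lower, with a median of 1.64. Cpt1b gave 1.36, 2.29 and 1.88 FPKM in 23-NC and 48.6, 46.96 and 48.8 in 23-CATA (4.21, SE 0.12, adjusted p = 2.12e-22), and the β-oxidation subunit gene Hadhb gave 127, 125 and 162 FPKM against 663, 667 and 637 (2.33, SE 0.08, adjusted p = 3.17e-20). Of 77 mitochondrial ribosomal protein genes, 68 were called higher and none lower, with a median of 0.79. Their largest member was Mrpl51 (1.56, SE 0.12, adjusted p = 2.78e-12). The respiratory chain list has short transcripts, with a median of 702 bases against 1377 for all genes tested, and with the trend on length removed all 47 were still called higher.

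The thermogenic list split. Of 22 listed genes in the table only 10 passed the filter on low values, and a gene that passed through 23-CATA alone had to differ, so the median over the 10 is not read as support. Of these 10, 8 were called higher and 2 lower, against 28.9% of all genes called higher and 39.9% called lower. Ucp1 was listed at 0 in all 23-NC libraries and at 0.1, 0 and 0 FPKM in 23-CATA, Dio2, the deiodinase that activates thyroid hormone in brown fat, did not exceed 0.01 FPKM, and Prdm16 did not pass the filter. The genes called lower were a pair of regulators of the brown programme. Ppargc1a, the mitochondrial coactivator PGC-1α, gave 7.51, 6.91 and 6.94 FPKM in 23-NC and 3.03, 3.69 and 2.35 in 23-CATA (−0.94, SE 0.12, adjusted p = 8.06e-09). Ebf2, a brown preadipocyte factor, gave 2.94, 2.55 and 2.37 FPKM against 0.89, 0.91 and 0.76 (−0.88, SE 0.10, adjusted p = 1.86e-09). In both cases every 23-CATA library was below every 23-NC library, while the oxidative enzymes lay above.

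Adipocyte genes stood higher in 23-CATA, from an already high level in 23-NC. Of 14 adipocyte markers, 13 were tested and all 13 were called higher, with a median of 1.61, against 28.9% of all genes called higher. Lep, which encodes leptin, did not exceed 0.02 FPKM in any of the 6 libraries. Adipoq, which encodes the hormone adiponectin, gave 274, 298 and 359 FPKM in 23-NC and 1419, 1428 and 1614 in 23-CATA (2.35, SE 0.09, adjusted p = 3.34e-19). Plin1, the coat protein of large lipid droplets, gave 172, 183 and 166 FPKM against 695, 689.6 and 694 (2.07, SE 0.06, adjusted p = 7.79e-22). The 23-CATA libraries lay close together for Plin1 and all above 23-NC. Fabp4, the fatty acid binding protein of fat cells, gave 18183, 18668 and 25315 FPKM in 23-NC and 56981, 56284 and 62607 in 23-CATA (1.60, SE 0.26, adjusted p = 8.84e-06). It held the highest values of the table, so quantile normalisation, which gives every library's top gene the same value, returned no difference for it. Lpl, the lipase that takes fatty acids from lipoproteins (1.61, SE 0.07, adjusted p = 4.6e-17), and Cd36, a fatty acid transporter (1.99, SE 0.09, adjusted p = 2.18e-17), were also higher. Cfd, which encodes adipsin, was near the floor in 23-NC at 0.23, 0.55 and 0.8 FPKM and reached 14.1, 13.6 and 15.9 FPKM in 23-CATA (3.45, SE 0.13, adjusted p = 2.83e-19).

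Genes of triglyceride turnover mostly rose, with exceptions at single steps. Each count here stands against 28.9% of all genes called higher and 39.9% called lower. Of 14 lipid droplet protein genes tested 12 were called higher and 1 lower, and Bscl2, the seipin of droplet assembly, gave 7.19, 7.14 and 5.93 FPKM in 23-NC and 68.6, 61.8 and 80.7 in 23-CATA (3.28, SE 0.11, adjusted p = 1.3e-20). Of 16 triglyceride assembly genes 12 were called higher and 2 lower. Gpd1, which makes the glycerol backbone, gave 294, 286 and 335 FPKM against 4567, 4529.5 and 4499 (3.98, SE 0.06, adjusted p = 2.08e-28). Dgat2, an enzyme of the final esterification step, went the other way, with 564, 565 and 524 FPKM in 23-NC and 286, 266 and 264 in 23-CATA (−0.93, SE 0.06, adjusted p = 1.4e-14). The groups of both genes were fully apart, in opposite directions. Of 16 lipolysis genes 13 were called higher and 1 lower. G0s2, an inhibitor of the lipase ATGL, gave 40.01, 48.95 and 57.95 FPKM against 776, 766 and 1035 (4.19, SE 0.18, adjusted p = 7.1e-18). Of 17 fatty acid uptake and binding genes 13 were called higher and 2 lower, led by Cav1, the caveolae coat protein (2.90, SE 0.08, adjusted p = 4.73e-23), and Slc27a1, a fatty acid transport protein (2.77, SE 0.09, adjusted p = 8.26e-21). Of 20 fatty acid synthesis genes 15 were called higher and 3 lower. They ranged from Thrsp, a lipogenic regulator (3.70, SE 0.19, adjusted p = 6.19e-16), down to Elovl6, an elongase of saturated fatty acids (−1.06, SE 0.09, adjusted p = 8.52e-12).

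Glycolysis and cholesterol synthesis rose as well, against the same shares of 28.9% of all genes called higher and 39.9% called lower. Of 17 glycolytic genes 15 were called higher and 1 lower, with a median of 0.97. Ldhb, the heart form of lactate dehydrogenase, gave 11.2, 11.3 and 13.4 FPKM in 23-NC and 127, 119.7 and 156 in 23-CATA (3.46, SE 0.11, adjusted p = 1.16e-20), and Ldha, the muscle form, also rose (1.74, SE 0.09, adjusted p = 2.18e-16). Of 22 cholesterol synthesis genes 17 were called higher and 2 lower, with a median of 1.16. Insig1, the sterol-sensing brake on SREBP processing, gave 49.6, 50.5 and 49.9 FPKM against 279, 281 and 264 (2.52, SE 0.05, adjusted p = 4.92e-25). Fdps, which makes farnesyl diphosphate, gave 17.5, 18.9 and 18.9 FPKM against 81.3, 75.1 and 95.4 (2.21, SE 0.10, adjusted p = 4.25e-17). Hsd17b7, an enzyme of a late step, was lower, with 14.6, 15.2 and 12.5 FPKM in 23-NC and 10.6, 10.4 and 6.89 in 23-CATA (−0.48, SE 0.11, adjusted p = 5.39e-05).

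**Figure D3:**
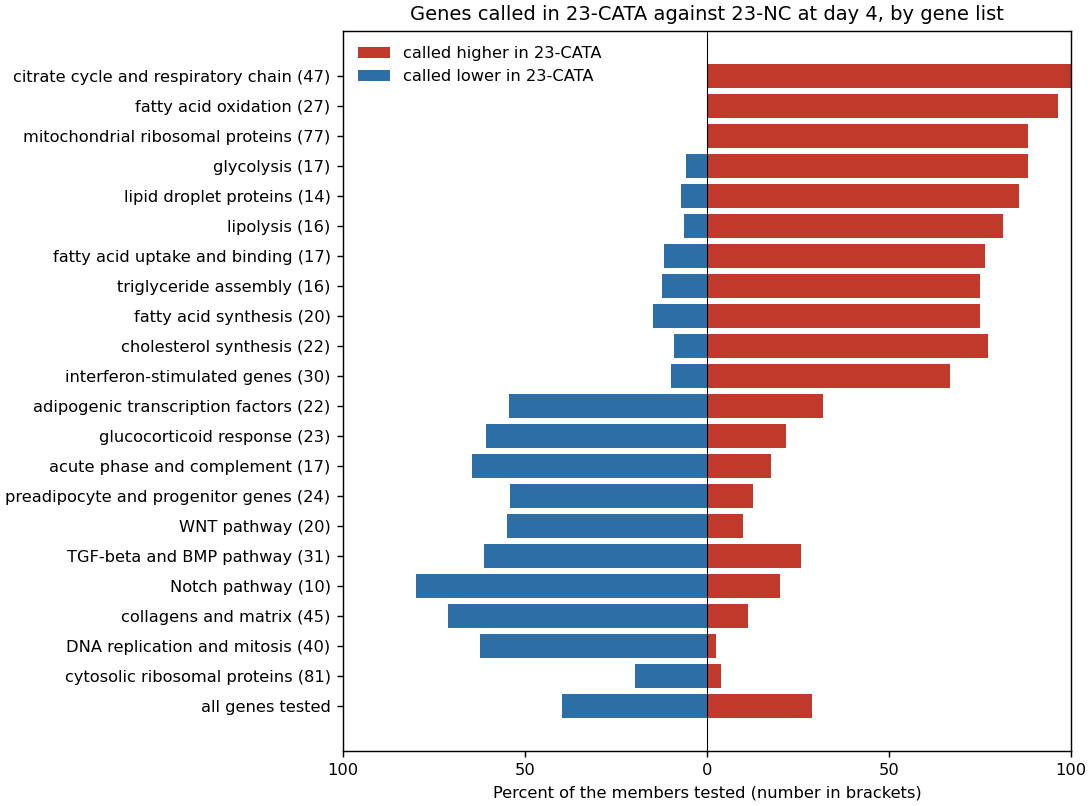
Percent of the tested members of 21 gene lists (member number in brackets) called higher (red, right) or lower (blue, left) in 23-CATA than in 23-NC at day 4, with all genes tested in the last bar. All 47 citrate cycle and respiratory chain genes are called higher, whereas 32 of 45 matrix genes are called lower, against 28.9% and 39.9% of all genes.

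The transcription factors of adipogenesis did not move together. Of 22 tested, 7 were called higher and 12 lower, with a median of −0.53, against 28.9% of all genes called higher and 39.9% lower. The share called higher was thus near that of all genes. Pparg gave 81.1, 84.4 and 97.9 FPKM in 23-NC and 137, 137 and 144 in 23-CATA (0.75, SE 0.08, adjusted p = 8.63e-09). Cebpa, its partner in the mature programme, gave 173, 169 and 177 FPKM against 327, 306 and 352 (1.00, SE 0.08, adjusted p = 7.38e-11). Nr1h3, the oxysterol receptor LXRα, gave 3, 2.97 and 3.44 FPKM against 29.6, 29.3 and 36.4 (3.06, SE 0.10, adjusted p = 5.15e-21). These genes were higher in all 23-CATA libraries. Rxra, which encodes a DNA-binding partner of PPARG, gave 102, 101 and 90.1 FPKM in 23-NC and 42.4, 41.6 and 40.6 in 23-CATA (−1.13, SE 0.06, adjusted p = 6.34e-17). The early factors were lower too, with Klf5 at 12.9, 12.2 and 9.15 FPKM against 2.3, 3.33 and 2.05 (−1.72, SE 0.14, adjusted p = 4.55e-12). Cebpd stood at 102, 105 and 142 FPKM against 41.9, 43.1 and 51.8 (−1.24, SE 0.12, adjusted p = 7.54e-11). No 23-CATA library of Rxra, Klf5 or Cebpd reached the range of 23-NC. Cebpb, another early factor, was uneven, with 188, 83.5 and 121 FPKM in 23-NC and 169, 122 and 468 in 23-CATA, and it was not called (0.86, SE 0.42, adjusted p = 0.102). Its groups overlapped, and leaving out replicate 1 of 23-NC gave an adjusted p of 0.0422 and leaving out replicate 2 of 23-CATA one of 0.0222.

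Ctla2b led the largest falls. Ctla2b and Ctla2a, near-identical inhibitors of cathepsins among which reads may be split uncertainly, differed by −4.53 and −3.57. Errfi1, an inhibitor of the EGF receptor, gave 505, 510.3 and 466 FPKM in 23-NC and 47.8, 52.4 and 45.8 in 23-CATA (−3.23, SE 0.06, adjusted p = 9.47e-27). Fam107a, a stress-responsive actin-binding protein, gave 221, 225 and 224 FPKM against 30.6, 33.7 and 27.2 (−2.75, SE 0.06, adjusted p = 2.93e-25). The 23-NC libraries were high and tight for Errfi1 and Fam107a, and no 23-CATA library came near them. The other large falls were Wfdc3 (−3.37), Serpina3m (a serpin of a family of close copies, −3.28), Orm3 (an orosomucoid with close copies, −3.04), Hist2h2bb (a histone, −2.82), Lbp (lipopolysaccharide-binding protein, −2.72), Pxdn (peroxidasin of basement membranes, −2.67), Apbb1ip (−2.63), Cyp2f2 (a cytochrome P450, −2.61), Vcan (the proteoglycan versican, −2.58) and Ifi208 (an interferon-inducible gene with close copies, −2.55).

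Matrix genes were mostly lower. Of 45 collagens and other matrix genes 32 were called lower and 5 higher, with a median of −0.60, against 39.9% of all genes called lower. Vcan gave 189, 189 and 139 FPKM in 23-NC and 27.3, 28.6 and 22.6 in 23-CATA (−2.58, SE 0.11, adjusted p = 1.18e-18). Lox, the enzyme that crosslinks collagen, gave 405, 406 and 348 FPKM against 71.8, 75.1 and 55.6 (−2.42, SE 0.09, adjusted p = 4.83e-20). The groups of both genes were apart, and replicate 3 was the lowest library of each group. Fmod, the small proteoglycan fibromodulin, was higher, with 2.85, 2.54 and 2.41 FPKM against 21.6, 20.9 and 22.03 (2.73, SE 0.10, adjusted p = 3.68e-19), as was Col15a1 (1.59, SE 0.10, adjusted p = 2.87e-14), a collagen of fat basement membranes. The list holds long transcripts, with a median of 2513 bases, and with the trend on length removed 31 were called lower and 11 higher. Of 22 matrix proteases and inhibitors 11 were called lower and 5 higher, but 7 lower and 6 higher after median-ratio scaling. The falls included Timp3, a metalloprotease inhibitor (−2.49, SE 0.09, adjusted p = 1.14e-20) and Mmp2, a gelatinase (−1.66, SE 0.07, adjusted p = 2.1e-19).

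Receptors and ligands of progenitor signalling were lower in part. The counts below stand against 28.9% of all genes called higher and 39.9% called lower. Of 16 Notch genes only 10 were tested, of which 8 were called lower and 2 higher. Notch2 gave 22.7, 23.3 and 15.8 FPKM in 23-NC and 6.36, 6.83 and 5.21 in 23-CATA (−1.50, SE 0.15, adjusted p = 1.16e-10), and its ligand gene Jag1 gave 17.8, 17.2 and 14.6 FPKM against 5.41, 5.29 and 4.09 (−1.48, SE 0.10, adjusted p = 1.48e-14). Lfng, a glycosyltransferase that modifies Notch, rose (1.49, SE 0.10, adjusted p = 2.16e-13). Of 42 TGF-β and BMP genes 31 were tested, of which 19 were called lower and 8 higher. Without replicate 3 of both groups 5 were called higher. They ran from Fst, the activin antagonist follistatin (−1.75, SE 0.08, adjusted p = 4.84e-18), to Gdf5, a BMP-family ligand (2.76, SE 0.11, adjusted p = 6.96e-19). Of 42 WNT genes only 20 were tested, of which 11 were called lower and 2 higher. The coreceptors Lrp6 (−1.45, SE 0.13, adjusted p = 1.59e-11) and Lrp5 (−1.19, SE 0.10, adjusted p = 7.2e-12) fell, while Wnt5b rose from 0.17, 0.3 and 0.2 FPKM to 3.67, 3.24 and 4.12 FPKM (2.02, SE 0.09, adjusted p = 2.71e-17). The WNT list has the longest transcripts of the lists described, with a median of 3043 bases. With the trend on length removed 8 were called lower and 7 higher, against 4037 lower and 4301 higher of all 12231 genes. The WNT list therefore has no stable lean. Of 32 preadipocyte and progenitor genes 24 were tested, of which 13 were called lower and 3 higher. With the trend on length removed 11 were called lower and 6 higher. Vcam1, an adhesion molecule of stromal cells, gave 178, 184 and 179.9 FPKM in 23-NC and 31.3, 32.7 and 31.3 in 23-CATA (−2.39, SE 0.05, adjusted p = 1.11e-26).

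Genes known to respond to glucocorticoids were lower more often than higher, 48 h after dexamethasone was withdrawn from either group. Of 23 tested, 14 were called lower and 5 higher, with a median of −0.41, against 39.9% of all genes called lower. At day 0, before dexamethasone was given, the list median was 0.71. Besides Errfi1, the falls included Ddit4, an inhibitor of mTOR signalling, with 303, 302 and 333 FPKM in 23-NC and 57.4, 59.4 and 66.7 in 23-CATA (−2.25, SE 0.08, adjusted p = 1.19e-20). Fkbp5, a chaperone partner of the glucocorticoid receptor, gave 628, 609 and 556 FPKM against 211, 206 and 213 (−1.42, SE 0.06, adjusted p = 1.56e-18). Of the rises, Angptl4, a lipase inhibitor that PPARs also induce (1.95, SE 0.08, adjusted p = 3.7e-18), and Mgst1, a microsomal glutathione transferase (2.15, SE 0.12, adjusted p = 1.69e-15), were the largest. Acute phase and complement genes were lower as well, with 11 of 17 called lower and 3 higher. C3, the central complement component, gave 906, 913 and 692 FPKM in 23-NC and 263, 272 and 263 in 23-CATA (−1.56, SE 0.09, adjusted p = 1.34e-15). Cp, which encodes ceruloplasmin, rose (2.05, SE 0.08, adjusted p = 2.19e-18).

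Interferon-stimulated genes were more often higher. The counts in this paragraph stand against 28.9% of all genes called higher and 39.9% called lower. Of 30 tested, 20 were called higher and 3 lower (1 lower without replicate 3 of both groups), with a median of 0.45. Their summed level was 604 to 728 FPKM in 23-NC and 975 to 1240.0 FPKM in 23-CATA. Isg15, a ubiquitin-like protein, gave 3.25, 2.6 and 4.12 FPKM in 23-NC and 17.6, 18.9 and 26.7 in 23-CATA (2.43, SE 0.15, adjusted p = 2.83e-14). Ifit3, another antiviral effector, gave 1.03, 1.03 and 1.8 FPKM against 8.86, 7.72 and 9.21 (2.17, SE 0.12, adjusted p = 1.39e-15). Both genes were apart between the groups, and Stat2, a transducer of interferon signals, fell slightly (−0.42, SE 0.08, adjusted p = 5.71e-06). Of 20 class I antigen presentation genes 10 were called higher and 5 lower, led by the immunoproteasome subunit gene Psmb10 (2.04, SE 0.16, adjusted p = 7.31e-12).

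Cell division genes were modestly lower. Of 40 replication and mitosis genes 25 were called lower and 1 higher, with a median of −0.21. The shares over all genes were 39.9% lower and 28.9% higher. With the trend on length removed 22 were called lower and 2 higher, against 4037 lower and 4301 higher of all 12231 genes. After median-ratio scaling 18 were called lower and 3 higher, against 3978 lower and 4441 higher of all genes. Top2a, the topoisomerase of dividing cells, gave 18.98, 21.5 and 21.6 FPKM in 23-NC and 6.42, 6.9 and 5.59 in 23-CATA (−1.49, SE 0.08, adjusted p = 4.32e-16), and Ccne1, a cyclin of the G1 to S transition, was the gene called higher (1.06, SE 0.12, adjusted p = 1.72e-08). The cytosolic ribosomal proteins had no stable direction, since 16 of 81 were called lower and 3 higher as deposited, 60 lower and 2 higher after quantile normalisation, and 6 lower and 9 higher after median-ratio scaling. Without replicate 3 of 23-NC 6 were called lower and 15 higher.

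Markers of other cell types were checked as summed FPKM over each list. The 13 leukocyte markers summed to 17.0 to 18.5 FPKM in 23-NC and to 56.0 to 63.9 FPKM in 23-CATA, nearly all of it Cd68, a lysosomal protein, at 16.8, 15.5 and 16.3 and 51.8, 51.7 and 58.2 FPKM. The pan-leukocyte gene Ptprc and the macrophage gene Adgre1 stayed under 1 FPKM in every library. The 9 endothelial markers summed to at most 1.45 FPKM, the 9 epithelial markers to at most 1.33 and the 11 skeletal muscle markers to at most 1.18. The 10 chondrocyte markers summed to 40.6 to 45.9 FPKM in 23-NC and 19.7 to 21.0 in 23-CATA, and the 5 tendon markers to 4.57 to 6.23 and 25.6 to 27.2, most of the latter being Fmod. The 9 neuron or glia markers summed to 7.87 to 8.86 FPKM in 23-NC and 12.36 to 15.97 in 23-CATA. In each group 7 of the 9, not the same 7, were under 1 FPKM in all 3 libraries, and S100b made up most of the sum in 23-CATA. The 9 osteoblast markers overlapped, at 5.97 to 8.5 FPKM in 23-NC and 7.21 to 12.9 in 23-CATA. The 10 mesenchymal markers overlapped, at 1668 to 1841 FPKM in 23-NC and 1567 to 1881 in 23-CATA. The part of these marker differences in the other results was not tested.

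The difference at day 4 was compared with that before induction by an interaction test. The day 0 and day 4 comparisons share no library. Of the genes tested, 58.1% were called in it, 17.5% with a more positive difference at day 4 and 40.6% with a more negative one. More positive differences made up 30.2% of the calls as deposited and 52.3% after median-ratio scaling. Large calls made up 12.6% of genes, 3.79% more positive and 8.85% more negative. The oxidative genes belonged to the first kind. Each of the 47 genes of the citrate cycle and respiratory chain, and 24 of 27 fatty acid oxidation genes, had a more positive difference at day 4 than at day 0. The median difference of the respiratory chain list was 0.13 at day 0, 1.38 at day 2, 1.33 at day 4 and 1.32 at day 6. Cpt1b stood at 1.48 ± 0.182 FPKM (SD, n = 3) in 23-NC and 2.22 ± 0.442 in 23-CATA at day 0, and its difference was larger at day 4 by 3.94 (SE 0.17, adjusted p = 2.24e-17). Elovl3 was at 0 in 23-NC and at 0.0267 ± 0.0231 FPKM in 23-CATA at day 0, and its difference was larger by 5.55 (SE 0.12, adjusted p = 1.18e-24). Cholesterol synthesis changed sides, with a median of −0.95 at day 0 and 1.16 at day 4, and 21 of 22 members were called in the interaction with none the other way.

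The adipocyte markers belonged to the second kind. Of the 13 tested, 12 had a smaller log2 difference at day 4 than at day 0 and none a larger one. The mean of each was nevertheless higher in 23-CATA on either day. This holds on the log2 scale, and the gap in FPKM was not compared between days. Adipoq stood at 0.39 ± 0.187 FPKM (SD, n = 3) in 23-NC and at 186 ± 4.38 in 23-CATA before induction, and its log2 difference was smaller at day 4 (interaction −4.63, SE 0.13, adjusted p = 3.4e-23). Plin1 stood at 0.15 ± 0.0755 FPKM in 23-NC and 80.2 ± 3.49 in 23-CATA at day 0 (interaction −3.96, SE 0.09, adjusted p = 3.31e-25). The 23-NC cells had gained these genes by day 4. Immediate early genes had a median difference of 1.68 at day 0 and −0.02 at day 4, with 19 of 24 called more negative and 2 more positive. For the glucocorticoid-responsive genes the medians were 0.71 and −0.41, with 18 of 23 called more negative and 1 more positive. Of the 848 large rises at day 4, 60.3% already had every 23-CATA library above every 23-NC library at day 0, against 34.1% of all genes. Of the 733 large falls, 28.1% were already fully below at day 0, against 12.8% of all genes, and 22.5% were fully above.

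**Figure D4:**
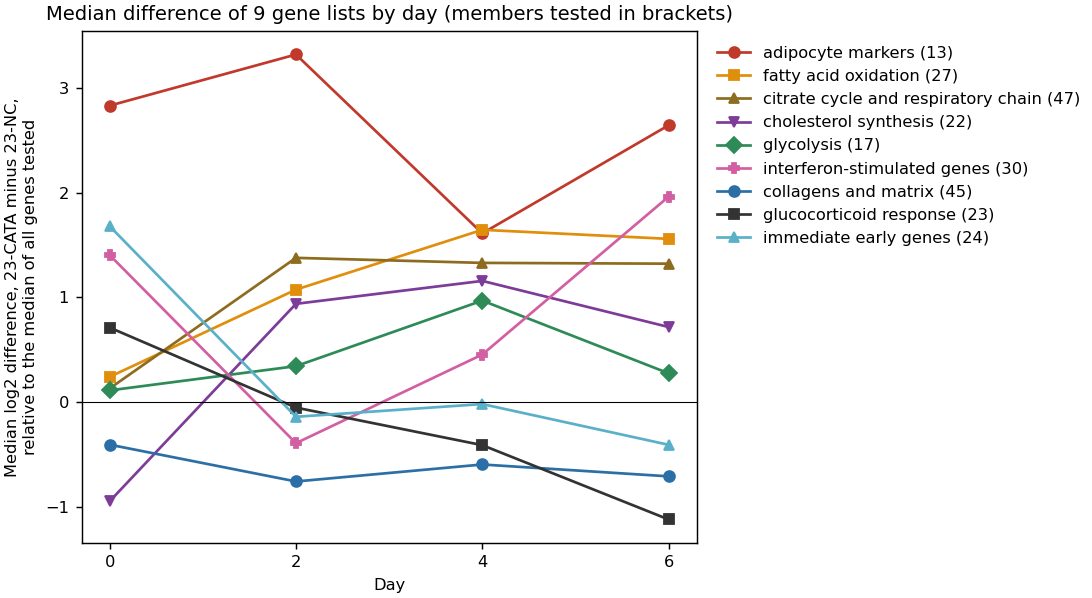
Median log2 difference between 23-CATA and 23-NC (y axis, less the median over all tested genes) of 9 gene lists at days 0, 2, 4 and 6 (x axis). The adipocyte markers are lowest at day 4, at 1.61, while fatty acid oxidation climbs from 0.24 at day 0 to 1.64 at day 4 and cholesterol synthesis from −0.95 to 1.16.

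Against day 6, 46.0% of genes were called in the interaction, 17.3% with a more positive and 28.7% with a more negative difference at day 4. More positive differences were 37.6% of the calls as deposited and 50.3% after median-ratio scaling. Large calls made up 7.06% of genes, 2.7% more positive and 4.36% more negative. Of the 13 adipocyte markers 10 had a smaller difference at day 4 than at day 6 and none a larger one. Adipoq fell in 23-NC to 126 ± 8.87 FPKM at day 6 and reached 2153 ± 46.6 FPKM in 23-CATA (SD, n = 3; interaction −1.73, SE 0.13, adjusted p = 1.13e-12). Cebpa moved likewise, to 40.6 ± 3.95 FPKM in 23-NC and 304 ± 7.20 in 23-CATA (interaction −1.86, SE 0.12, adjusted p = 6.72e-14). The interferon-stimulated genes had a smaller difference at day 4 than at day 6 in 29 of 30 cases. Their list medians were 1.40, −0.39, 0.45 and 1.96 at days 0, 2, 4 and 6. The respiratory chain list was little different between days 4 and 6, with 2 of 47 more positive at day 4 and 12 more negative. The rise of Rbp7 was smaller at day 6, when it stood at 8.69 ± 1.71 FPKM in 23-NC and 14.5 ± 1.18 FPKM in 23-CATA at day 6 (interaction 5.66, SE 0.38, adjusted p = 8.29e-13). Fkbp5 fell further after day 4 in 23-CATA, to 11.2 ± 0.351 FPKM against 315 ± 9.80 in 23-NC (interaction 3.29, SE 0.09, adjusted p = 1.59e-21).

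**Figure D5:**
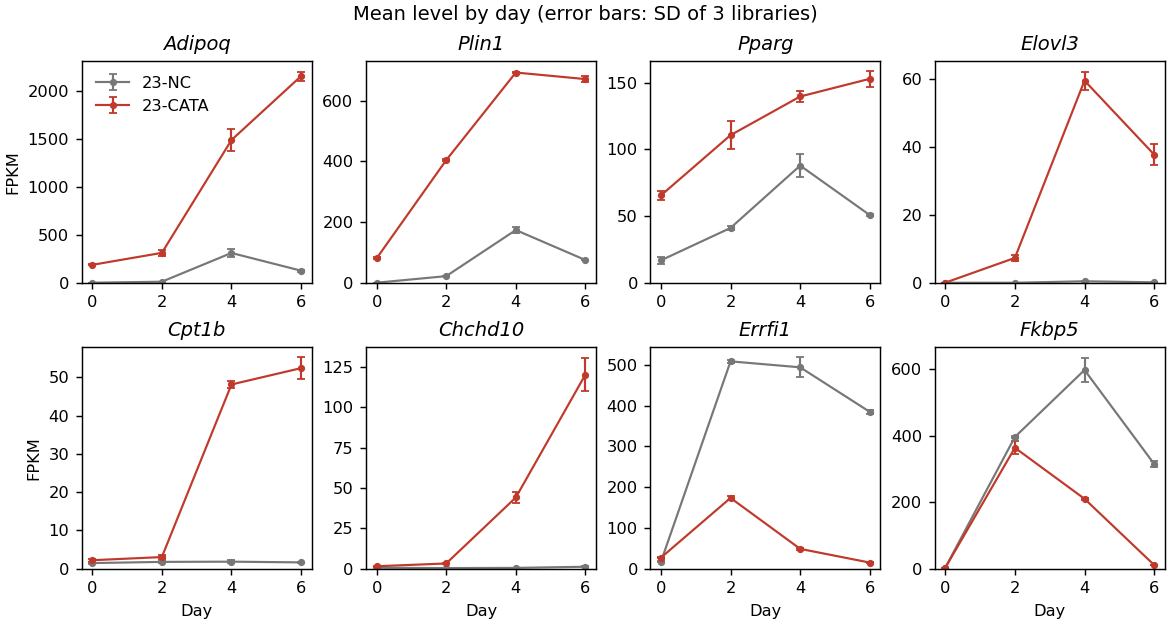
Mean FPKM (y axis, from 0) of 8 genes at days 0, 2, 4 and 6 (x axis) in 23-NC (grey) and 23-CATA (red); error bars are the SD of 3 libraries. Adipoq and Plin1 peak at day 4 in 23-NC and go on at a high level in 23-CATA, Elovl3, Cpt1b and Chchd10 stay low in 23-NC, and Errfi1 is lower in 23-CATA from day 2 and Fkbp5 from day 4.

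The 23-CATA cells were also set against the libraries titled 23-Tet1 on the same day. The genotype tag differs from the title in 11 of the 12 libraries of that population, and the titles were followed. This comparison shares the 23-CATA libraries with the one against 23-NC, and its correlation with transcript length was −0.22. Tet1 stood at 5.38, 4.66 and 5.54 FPKM in 23-Tet1, below 23-CATA (0.86, SE 0.11, adjusted p = 2.36e-06). Of the genes tested 74.2% were called, 27.6% higher and 46.6% lower in 23-CATA. Higher calls were 37.2% of all calls as deposited and 53.6% after median-ratio scaling. Large calls made up 17.9% of genes, 7.98% higher and 9.88% lower, and the groups did not overlap for 73.7%. All 47 respiratory chain genes and all 13 adipocyte markers were called higher in 23-CATA than in 23-Tet1. Cidea gave 0.52, 0.6 and 0.38 FPKM in 23-Tet1 (6.09, SE 0.10, adjusted p = 1.78e-27), Cox8b gave 0.82, 2.47 and 2.24 (5.84, SE 0.22, adjusted p = 1.99e-19) and Rbp7 gave 1.2, 4.3 and 0.64 (7.29, SE 0.27, adjusted p = 6.45e-20). The 23-Tet1 levels of Cidea and Cox8b lay below the 23-NC libraries, and those of Rbp7 overlapped them. Cholesterol synthesis did not separate the populations in 1 direction, with 8 of 22 members called higher and 9 lower. In the other direction the 5 largest differences were those of Saa3, Ccl7, Ccl2 and the matrix genes Sned1 and Tnc. Saa3, serum amyloid A, gave 645, 555 and 658 FPKM in 23-Tet1 against 5.48, 4.49 and 7.88 in 23-CATA (−6.34, SE 0.26, adjusted p = 3.45e-19), and the chemokine gene Ccl7 gave 214, 212 and 221 FPKM against 5.06, 6.53 and 4.36 (−4.95, SE 0.15, adjusted p = 2.1e-22).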

How the data were processed

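Poly(A) RNA of C3H10T1/2 cells was extracted with Trizol and made into libraries with an Illumina TruSeq kit, per the labels' protocols. The authors' FPKM values per gene were used as deposited; STAR 2.4.1a, RSEM and the mm10 build are named, with no role or order, in the submitters' processing notes. Gene counts were not used here. The members and gene lists were chosen with earlier results of these data known. The 36 libraries of the 12 groups in the same table entered 1 limma 3.58.1 fit (R 4.3.3), with a mean-variance trend, on log2(FPKM + 1) computed from the deposited FPKM. Genes with at least 1 FPKM in at least 3 libraries were tested, 12231 of 24982. P-values were adjusted by Benjamini-Hochberg over all genes tested and called under 0.05, and the fit was tested on simulated data. The 6 libraries hold about 12400000 to 16100000 fragments by the smallest FPKM steps.

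Genes were named by rule. The rule took 12 fixed genes, up to 4 members of each list with the largest called differences each way, and the 15 largest called rises and falls among genes whose groups did not overlap and whose higher group had a mean of at least 5 FPKM. It also took the 5 largest each way in each interaction and in the comparison with 23-Tet1. Some genes that the rule takes are not reported here. Any gene outside the rule was picked once its values were known. The titles number the replicates in every group. At day 4 the deviations of same-numbered 23-CATA and 23-NC libraries from their group means correlated at 0.126, 0.172 and 0.367, each over 0.1, and by that criterion the numbers were taken to pair them there. Replicates 1 and 2 correlated as much across numbers, at 0.140 and 0.232, and the criterion was not met at day 0 (replicate 3, −0.168) or day 6 (replicate 1, 0.0891). The p-values given are from the limma fit without a replicate block, unless another setting is named. Alternatives were another pseudocount, no filter, quantile normalisation, median-ratio scaling, library weights, a fit on the groups alone, a replicate block, leaving out each library and, added after seeing the data, leaving out replicate 3 of both groups and a correction for transcript length. Promoters and gene positions are from RefSeq on GRCm38.p6. Figures were drawn with matplotlib 3.10.9.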

Additional observations from a re-analysis of the deposited data

Results flagged for a closer look

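The difference between 23-CATA and 23-NC depended on the day for the following genes, each by limma's interaction test, with values on the log2 scale less the median over all tested genes. Compared with day 0, the difference at day 4 was more positive for Rbp7 (6.07, SE 0.38, adjusted p = 9.62e-14), Elovl3 (5.55, SE 0.12, adjusted p = 1.18e-24), Cidea (5.14, SE 0.14, adjusted p = 4.2e-22), Chchd10 (4.42, SE 0.21, adjusted p = 1.81e-16) and Apoc1, an apolipoprotein (4.32, SE 0.41, adjusted p = 1.04e-09). It was more negative for the immediate early genes Fosb (−6.26, SE 0.14, adjusted p = 1.17e-24) and Fos (−4.93, SE 0.10, adjusted p = 1.36e-25), for Fabp4 (−5.15, SE 0.37, adjusted p = 5.19e-13), for Cyp2f2 (−5.07, SE 0.15, adjusted p = 1.45e-22) and for Hp, which encodes haptoglobin (−4.89, SE 0.21, adjusted p = 6.36e-18).

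Compared with day 6, the difference at day 4 was more positive for Rbp7 (5.66, SE 0.38, adjusted p = 8.29e-13), for the small heat shock proteins Hspb7 (5.36, SE 0.37, adjusted p = 2.21e-12) and Cryab (3.45, SE 0.21, adjusted p = 1.36e-13), for Fkbp5 (3.29, SE 0.09, adjusted p = 1.59e-21) and for Hspa1b, an inducible HSP70 with a near-identical copy (3.28, SE 0.28, adjusted p = 1.58e-10). It was more negative for Saa3 (−4.33, SE 0.37, adjusted p = 5.89e-11), Cfd (−4.22, SE 0.19, adjusted p = 3.99e-17), the carbonic anhydrase gene Car3 (−4.01, SE 0.14, adjusted p = 1.04e-19), the interferon-induced Ifi27l2a (−3.59, SE 0.24, adjusted p = 3.23e-13) and the cathelicidin gene Camp (−3.58, SE 0.25, adjusted p = 8.34e-13). Hspb7 stood at 3.11, 2.94 and 3.7 FPKM in 23-NC and 24.7, 25.3 and 27.6 in 23-CATA at day 4, and at 27.7 ± 0.721 and 3.73 ± 0.142 FPKM (SD, n = 3) at day 6. Camp stood at 5.41, 6.39 and 7.45 and 3.03, 2.65 and 4.55 FPKM at day 4, and at 0.283 ± 0.112 and 8.72 ± 1.10 at day 6.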

How the results depend on the processing

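Of the 12231 genes tested 8408 were called between 23-CATA and 23-NC at day 4. The calls numbered 8494 with a pseudocount of 0.1 FPKM, 8856 without the filter, 8276 with quantile normalisation, 8419 with median-ratio scaling, 7322 in the 2 groups alone, 10054 with library weights, 7905 without replicate 3 of both groups and 8338 with the length correction. Leaving out 1 library gave 7882 to 8353 calls and 1436 to 1789 large calls. For the interaction with day 0 the ranges were 6630 to 7226 and 1384 to 1741, for that with day 6 they were 5241 to 5528 and 822 to 905, and for 23-CATA against 23-Tet1 they were 8637 to 8917 and 2019 to 2346. A pseudocount of 0.1 FPKM raised the large calls from 1581 to 2417 at day 4 and to 1394 in the interaction with day 6, as it widens the differences of low genes by construction.

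With the replicate number as a block the calls numbered 8444 in the fit of all 12 groups, 7771 with the compared groups alone and 8323 with the length correction. The first of these fits changed no call of the 312 named genes. Ccl2, Vim, Hspa4l and Cnmd were not called in the groups alone, with the block or without it, and Saa3 was called there with the block.

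Signs turned, as fitted and without subtracting the median, for a few named genes, most of them with small differences. In 23-CATA minus 23-NC at day 4 Fos gave −0.00165 and Vim −0.00892 after quantile normalisation. Bglap2, whose difference was not small at 1.19 in the groups alone, gave −0.120 with library weights. Hspa1b gave 0.0170 after median-ratio scaling and 0.119 with the length correction, with or without the block. Txnrd1 gave 0.0413 with the length correction. In the interaction with day 0, Tet1 gave 0.321 with the smaller pseudocount, 0.323 after quantile normalisation, 0.197 after median-ratio scaling, 0.0268 with library weights and 0.0370 without replicate 3 of 23-CATA at day 4. Over the libraries left out, Tet1 ran from −0.272 upwards, Cd36 from −0.0710 and Cebpb from −0.907. Cd36 gave 0.0783, 0.242 and 0.154 with quantile normalisation, median-ratio scaling and library weights. It gave 0.0875 without replicate 3 of 23-NC at day 4, and 0.0281 and 0.0896 without replicate 3 of 23-CATA at day 0 and day 4. Cebpb gave 0.0575 there without replicate 2 of 23-CATA at day 4. Against 23-Tet1, Fabp4 gave 0 after quantile normalisation, as the top gene of each library. The causes of the other changes were not tested.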

Other observations

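Several groups not yet described split between their members. Of 23 insulin signalling and glucose uptake genes 9 were called higher and 11 lower, with a median of −0.18, and with the trend on length removed 10 were called higher and 7 lower. The shares over all genes were 28.9% higher and 39.9% lower. The counts for insulin signalling, like those for lysosome genes, are not read as a result about the lists. Slc2a4, the insulin-responsive glucose transporter, gave 24.9, 25.4 and 25.1 FPKM in 23-NC and 64.7, 62.5 and 65.7 in 23-CATA (1.40, SE 0.06, adjusted p = 1.05e-17). The insulin receptor gene Insr gave 41.5, 40.7 and 31.9 FPKM against 22.6, 23.9 and 15.6 (−0.77, SE 0.13, adjusted p = 2.09e-06), and Igf1r, the receptor of insulin-like growth factor, fell too (−1.20, SE 0.12, adjusted p = 2.31e-10), while the hormone gene Igf1 rose (2.50, SE 0.08, adjusted p = 2.41e-20). The receptor genes were lower and the transporter gene higher in every 23-CATA library. Of 31 NRF2-linked antioxidant genes 17 were called higher and 3 lower, and after quantile normalisation 15 higher and 8 lower. Gclc, the catalytic subunit of glutathione synthesis, was among the lower genes (−1.68, SE 0.12, adjusted p = 1.7e-13). Of 13 tested retinoid metabolism genes 6 were called higher and 3 lower, the latter 5 with library weights, and Retsat, the retinol saturase of fat cells, was among the higher (2.43, SE 0.06, adjusted p = 5.5e-23). Of 26 lysosome and autophagy genes 14 were called lower and 8 higher. Of 23 smooth muscle contractile genes 12 were called lower and 4 higher. With the trend on length removed 10 were lower and 7 higher, and after median-ratio scaling 9 lower and 7 higher, so this list has no stable lean.

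Apart from Tet1, 1 gene passed from under 0.1 FPKM in every 23-NC library to at least 5 FPKM in every 23-CATA library, and it is named after its values were seen. Ghrh, which encodes growth hormone-releasing hormone, was listed at 0 in all 3 libraries of 23-NC and at 12.8 to 15.7 FPKM in 23-CATA at day 4. It was listed at 0 in both populations at day 0 and had a mean of 0.0933 FPKM in 23-Tet1 at day 4. No gene passed the reverse criterion.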
